A study of Homo sapiens with 6 samples.

Results

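The genes described here encode proteins of the centromere and kinetochore and of the condensin and cohesin complexes. They were listed by name, with earlier results of these data known. The 48 symbols were matched through Ensembl gene IDs to the 35840 genes of the deposited expression table, and each symbol matched 1 gene. RNA came from the human liver cancer line Huh-7, cultured for 48 h with metformin (metformin replicates 1, 2 and 3) or with none (control replicates 4, 5 and 6), 1 library each. The study's methods give the dose as 20 mM, against 0 mM in the control group (another passage of its text gives a higher dose), and state that cells of both groups were starved before treatment. Both groups were the same unmodified line, so the results hold for 1 line, and the sequencing is described as done in triplicate. The methods mention independent trials for the study's data in general, but neither they nor the labels say which cultures the 6 libraries came from. The p-values therefore measure the spread between these libraries, which may be technical.

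The centromere is the chromosome region at which a kinetochore forms in mitosis. Nucleosomes that carry the histone variant CENP-A mark it, an inner layer of proteins (the constitutive centromere-associated network, CCAN) sits on them, and an outer layer, the KMN network, binds spindle microtubules. Condensins fold and stiffen mitotic chromosomes, while cohesin holds sister chromatids together from replication to anaphase and forms chromatin loops in interphase. Many of the kinetochore and condensin genes are known to be transcribed mostly in G2 and M phase, whereas the main cohesin subunits are made throughout the cell cycle.

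Levels are in FPKM, fragments per kilobase of exon, scaled to the size of each library. The 6 libraries held 17192221 to 18464783 fragments, so 1 fragment in a gene of 1 kb was worth 0.0542 to 0.0582 FPKM. Correlations of log2(FPKM + 1) were taken across the 13094 genes that reached a mean of 1 FPKM in either group. They were 0.987 to 0.992 between libraries of a group and 0.888 to 0.906 between groups. Liver cell markers were present: 9 of 9 passed the minimum level, and their summed level was 2470 to 2607 FPKM without metformin and 1260 to 1449 with it. Of the 5 blood cell markers and 6 stromal and endothelial markers in the table, only CD14 and LUM passed that minimum. Summed levels were 22.5 to 34.6 FPKM against 5.81 to 10.2 for the blood markers and 100.1 to 112.5 against 34.9 to 47.8 for the stromal ones, with CD68 at 0 in every library. The part of these markers in the results below was not tested.

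Each gene was tested with limma on log2(FPKM + 1) over the 13094 genes that reached a mean of 1 FPKM in either group. A gene is called lower or higher at an adjusted p under 0.05, and past 2-fold when the log2 fold change was also beyond 1 in size. This scale understates the change of low genes. All 48 genes passed the minimum level. After metformin 38 of the 48 (79.2%) were lower, 1 was higher and 9 did not pass the test. Over all genes tested 44.1% were lower and 28.9% higher. Of the 48, 17 (35.4%) were lower past 2-fold, against 10.7% of all genes. The median log2 fold change was -0.75 over the 48 genes and -0.14 over all genes tested. In 42 of the 48 genes (87.5%) every metformin library lay below every control library, which held for 46% of all genes, and in 1 gene every metformin library lay above, which held for 30.7%. In RNA from a whole culture, fewer cells that express a gene and less RNA per cell cannot be told apart.

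The direction of small changes depended on the scaling between libraries. With median-of-ratios factors, which assume that most genes do not change, the median log2 fold change over all genes tested was 0.060, an upward shift of 0.20, and 33.3% of all genes were lower and 40.4% higher. Under that scaling 35 of the 48 genes were lower, 4 were higher (STAG2, CENPB, CENPQ and SMC3), and 10 were lower past 2-fold, against 7.51% of all genes. These 10 (CENPI, SKA2, SPC24, SPC25, ZWINT, DSN1, CENPE, CENPM, SKA1 and CENPK) were past 2-fold under every alternative tried. The genes of the 48 past 2-fold numbered 10 with TMM factors (7.42% of all genes), 13 with quantile normalization (7.54%), and 19 both with a pseudocount of 0.1 (18.5%) and with voom on rebuilt fragments (23.1%), where the share of all genes was highest. Ratios between genes within a library do not change with a single factor per library, but quantile normalization can change them. These ratios are given for 18 pairs of subunits further on.

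**Figure D1:**
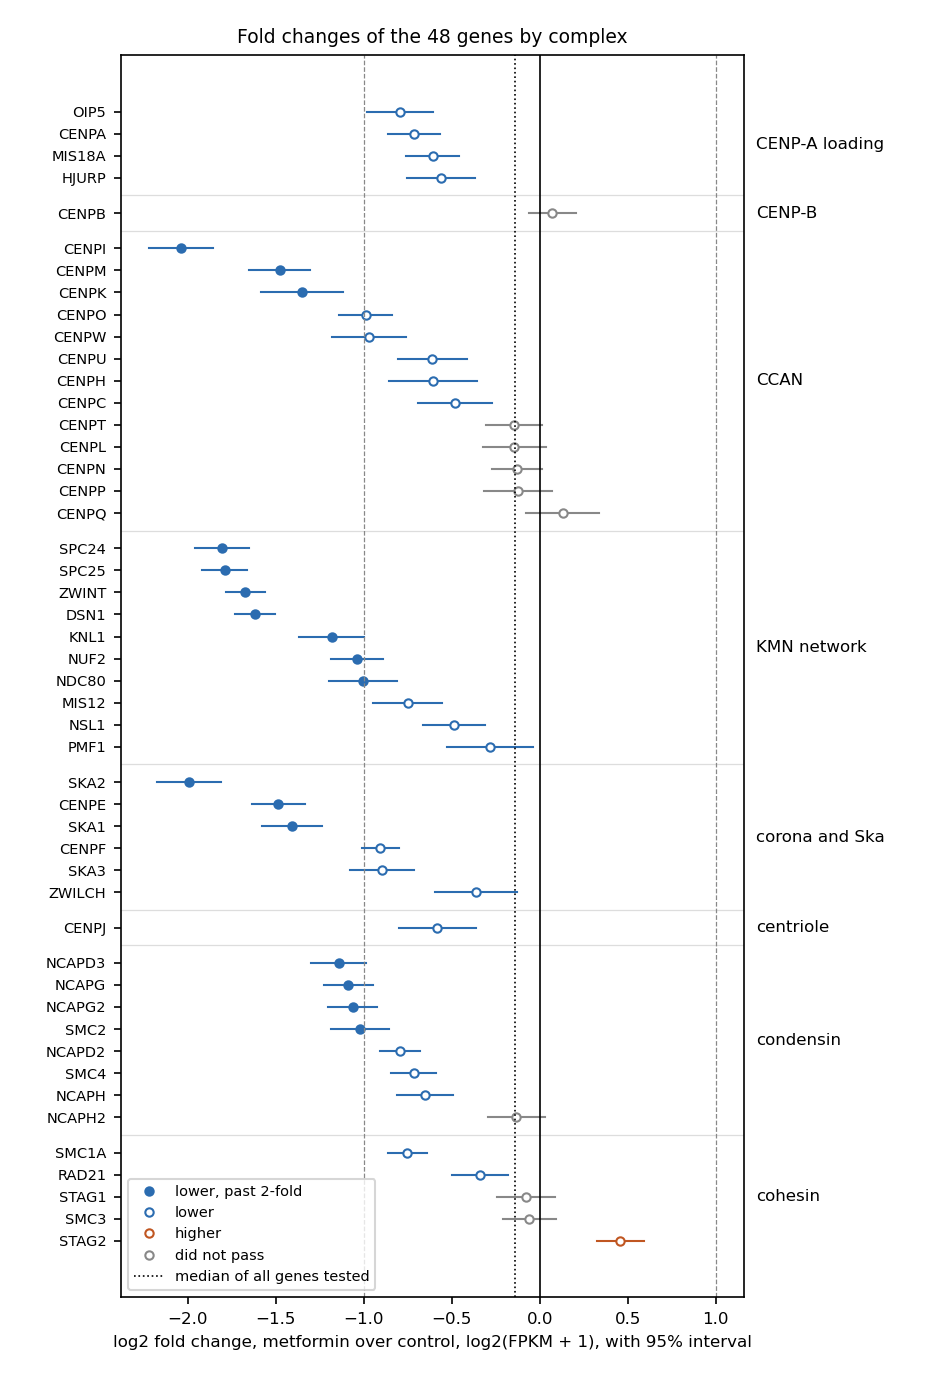
Log2 fold changes of the 48 genes (points, horizontal axis, metformin over control on the log2(FPKM + 1) scale) with 95% intervals (lines), grouped by complex. Filled points mark the 17 genes lower past 2-fold, grey points the 9 that did not pass, and the dotted line the median of all genes tested (-0.14), which was 0.060 with median-of-ratios factors. The KMN network lies wholly below the dotted line, from -1.81 (SPC24) to -0.28 (PMF1), and cohesin spreads on both sides of 0, from -0.75 (SMC1A) to 0.46 (STAG2).

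Bases before the transcription start of 6 of the genes, from the RefSeq promoter table for GRCh38.p14, are shown because the 48 genes moved mostly together and 4 of the 6 (CENPA, SPC24, ZWINT and NCAPG) fell while the other two did not pass the test. Each line gives the 150 bases before the start, 5′ to 3′ on the strand of the gene. Capitals mark 3 kinds of motif known from promoters of cell cycle genes: the CHR, written TTTGAA and alternatively TTCGAA, the CCAAT box, whose letters are its name, and E2F motifs, in the forms TTCCCGC and TTGGCGC, with the further forms TTCGCGC and TTGCCGC, each searched on both strands. The letters of a CCAAT box read on the other strand can overlap those of an E2F motif.
CENPA, chr2:26785906-26786055, plus strand: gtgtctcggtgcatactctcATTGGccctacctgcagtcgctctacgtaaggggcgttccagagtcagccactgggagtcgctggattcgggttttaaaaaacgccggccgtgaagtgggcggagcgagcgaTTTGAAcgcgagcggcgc
SPC24, chr19:11155783-11155932, minus strand: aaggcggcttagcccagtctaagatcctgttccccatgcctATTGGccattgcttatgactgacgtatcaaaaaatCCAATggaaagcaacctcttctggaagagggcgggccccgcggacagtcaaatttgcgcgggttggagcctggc
ZWINT, chr10:56361274-56361423, minus strand: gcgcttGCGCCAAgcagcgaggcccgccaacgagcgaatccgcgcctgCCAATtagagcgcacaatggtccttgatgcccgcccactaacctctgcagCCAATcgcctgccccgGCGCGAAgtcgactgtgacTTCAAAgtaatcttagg
NCAPG, chr4:17810829-17810978, plus strand: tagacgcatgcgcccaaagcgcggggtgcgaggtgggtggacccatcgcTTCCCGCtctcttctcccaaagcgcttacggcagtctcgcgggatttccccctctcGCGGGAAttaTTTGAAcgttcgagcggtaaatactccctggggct
SMC3, chr10:110567545-110567694, plus strand: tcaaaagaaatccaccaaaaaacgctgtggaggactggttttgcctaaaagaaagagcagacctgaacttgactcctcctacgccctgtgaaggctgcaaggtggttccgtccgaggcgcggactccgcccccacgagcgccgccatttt
STAG1, chr3:136752379-136752528, minus strand: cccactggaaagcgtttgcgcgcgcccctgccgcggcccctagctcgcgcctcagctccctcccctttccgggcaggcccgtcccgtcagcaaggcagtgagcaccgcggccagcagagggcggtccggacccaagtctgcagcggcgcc
CENPA had a CCAAT box whose first base lay at -130 and a CHR at -18, counted back from the start. In ZWINT a CHR lay at -17 behind CCAAT boxes at -102 and -52, and in NCAPG a CHR at -35 lay next to an E2F motif at -45. SPC24 had CCAAT boxes at -109 and -74. The 150 bases of SMC3 and STAG1 held none of these letters, but their longer windows, described next, did: SMC3 had a CHR, and STAG1 had a CCAAT box and an E2F motif. The 6 sequences do not stand for the rest: the 150 bases of CENPB, CENPN and CENPQ, which did not pass, held motifs. Those of NDC80, NUF2 and SKA3, which fell, held none. The motifs thus occurred in genes that fell and in genes that did not pass.

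Over the table's windows of 300 bases (250 before the start and 50 after it), 40 of the 48 genes had at least 1 window, and a gene was counted when any of its windows held the motif. CENPH, CENPJ, CENPL, CENPM, KNL1, MIS18A, NCAPH2 and RAD21 had no match. A CHR was found in 21 of the 40 genes (52.5%), against 19.5% of the 27305 genes of the table. The CCAAT box was in 23 (57.5%) against 39.7%, and an E2F motif in 19 (47.5%) against 15.3%. Among the 32 matched genes that fell, 19 held a CHR, 18 a CCAAT box and 14 an E2F motif. Among the 7 that did not pass, 2 held a CHR, 4 a CCAAT box and 4 an E2F motif. The windows of CENPE and DSN1, which both fell past 2-fold, held none of the 3. That of CENPI held none either, but its start lay 621 bases from the nearest transcript start of CENPI in GENCODE 44, and 2870 bases inside the gene, so its window need not cover the promoter in use. These matches describe the sequences only.

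Transcripts of the CENP-A nucleosome and of its loading factors fell together, by about the same amount. CENPA, the histone variant itself, was at 8.53, 8.93 and 8.24 FPKM in the control libraries and at 4.95, 4.53 and 5.001 in the metformin libraries. All 3 metformin values lay well under the lowest control value. This was a log2 fold change of -0.72, with a standard error of 0.062 (adjusted p = 4.35e-05). HJURP, the chaperone that delivers CENP-A, was at 23.4, 24.9 and 24.0 FPKM in the control libraries and 17.6, 16.5 and 14.1 in the metformin libraries (log2 fold change -0.56, adjusted p = 0.000606). OIP5 and MIS18A, subunits of the Mis18 complex that licenses the deposition of CENP-A, changed by -0.79 and -0.61 on the log2 scale. The 4 genes were lower under every alternative. OIP5 shares 63.2% of its exon bases with the antisense RNA OIP5-AS1, which was at 8.44 FPKM without metformin and 3.52 with it, and 29.3% with NUSAP1 on the other strand, at 61.0 and 27.1 FPKM. The sources do not state that the counting used strand, so OIP5 is uncertain. In all, 20 of the 48 genes share exon bases with a protein-coding gene of the table, and those that share 19% or more are named with their values. CENPB, which binds a sequence in centromeric satellite DNA, did not follow. It was at 29.2, 26.9 and 28.5 FPKM in the control libraries and 30.1, 28.2 and 30.9 in the metformin libraries, with overlapping groups (log2 fold change 0.072, 95% interval -0.061 to 0.21, adjusted p = 0.279). With median-of-ratios factors CENPB was higher (0.30, adjusted p = 0.00357).

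The CCAN had the widest range of the kinetochore layers, from -2.04 to 0.13 on the log2 scale. Of its 13 genes 8 were lower (3 past 2-fold), 5 did not pass and the median log2 fold change was -0.61. With median-of-ratios factors 8 were lower, 1 was higher and the median was -0.39. Among all genes tested 44.1% were lower and 10.7% lower past 2-fold, or 33.3% and 7.51% with median-of-ratios factors. The same shares stand beside the counts of the complexes below. The subunits of the CCAN fall into smaller assemblies.

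CENPI, CENPH, CENPK and CENPM form the assembly named after CENP-H, CENP-I, CENP-K and CENP-M, and all 4 fell. CENPI (chrX:101098188-101166126, plus strand, GRCh38) had the largest fall of the 48 genes. Its level was 8.12, 8.53 and 9.48 FPKM in the control libraries and 1.498, 1.27 and 1.33 in the metformin libraries. No metformin library reached 2 FPKM, and the lowest library still held 99 fragments. The mean was 6.38-fold lower, with a log2 fold change of -2.04 (standard error 0.078, adjusted p = 2.16e-06). Only 0.817% of all genes tested had a lower fold change. CENPM was at 9.10, 8.86 and 8.77 FPKM without metformin and at 2.67, 2.77 and 2.25 with it (log2 fold change -1.48). CENPK was at 14.7, 15.7 and 18.9 FPKM against 5.68, 6.29 and 5.42 (log2 fold change -1.35). CENPH moved less, from 13.1, 14.7 and 15.6 to 10.1, 9.75 and 7.70 FPKM (log2 fold change -0.61, adjusted p = 0.00146).

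In the assembly of CENPO, CENPP, CENPQ and CENPU, which recruits the mitotic kinase PLK1, 2 genes fell and 2 did not pass. CENPO was at 4.40, 4.60 and 4.25 FPKM against 1.73, 1.72 and 1.73, which is close to a 2-fold fall on the test's scale (log2 fold change -0.99, adjusted p = 1.17e-05). CENPU stood at 4.70, 4.75 and 4.73 FPKM against 3.07, 2.37 and 2.85 (log2 fold change -0.61). CENPQ was at 8.11, 7.54 and 7.59 FPKM without metformin and 8.60, 7.53 and 9.67 with it. The groups of CENPQ overlapped (log2 fold change 0.13, 95% interval -0.076 to 0.34, adjusted p = 0.215). Without metformin replicate 2 CENPQ was higher (0.21, adjusted p = 0.0471), as it was with median-of-ratios factors (0.34, adjusted p = 0.0125). CENPP was low in all libraries, at 1.22 to 1.67 FPKM, and did not pass (log2 fold change -0.12, 95% interval -0.32 to 0.070). CENPP shares 39.9% of its exon bases with IPPK on the other strand and CENPO shares 27% with ADCY3, so both are uncertain.

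CENPC, the protein that ties the CENP-A nucleosome to the outer kinetochore, was at 1.64, 1.497 and 1.86 FPKM in the control libraries and 0.953, 0.943 and 0.828 in the metformin libraries. The groups did not overlap, and the log2 fold change was -0.48 (adjusted p = 0.00197). With quantile normalization it did not pass (-0.20, adjusted p = 0.087). CENPT and CENPW are histone-fold proteins that pair and contact DNA. CENPW fell from 21.3, 24.2 and 26.1 FPKM to 11.7, 12.6 and 10.7 (log2 fold change -0.97), while CENPT went from 9.03, 8.31 and 8.04 to 8.01, 7.56 and 7.08. Its groups did not overlap, yet it missed the test (log2 fold change -0.15, 95% interval -0.31 to 0.014). CENPL and CENPN, which pair, CENPN contacting the CENP-A nucleosome, did not pass either, at -0.15 (95% interval -0.32 to 0.033) and -0.13 (-0.27 to 0.010).

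**Figure D2:**
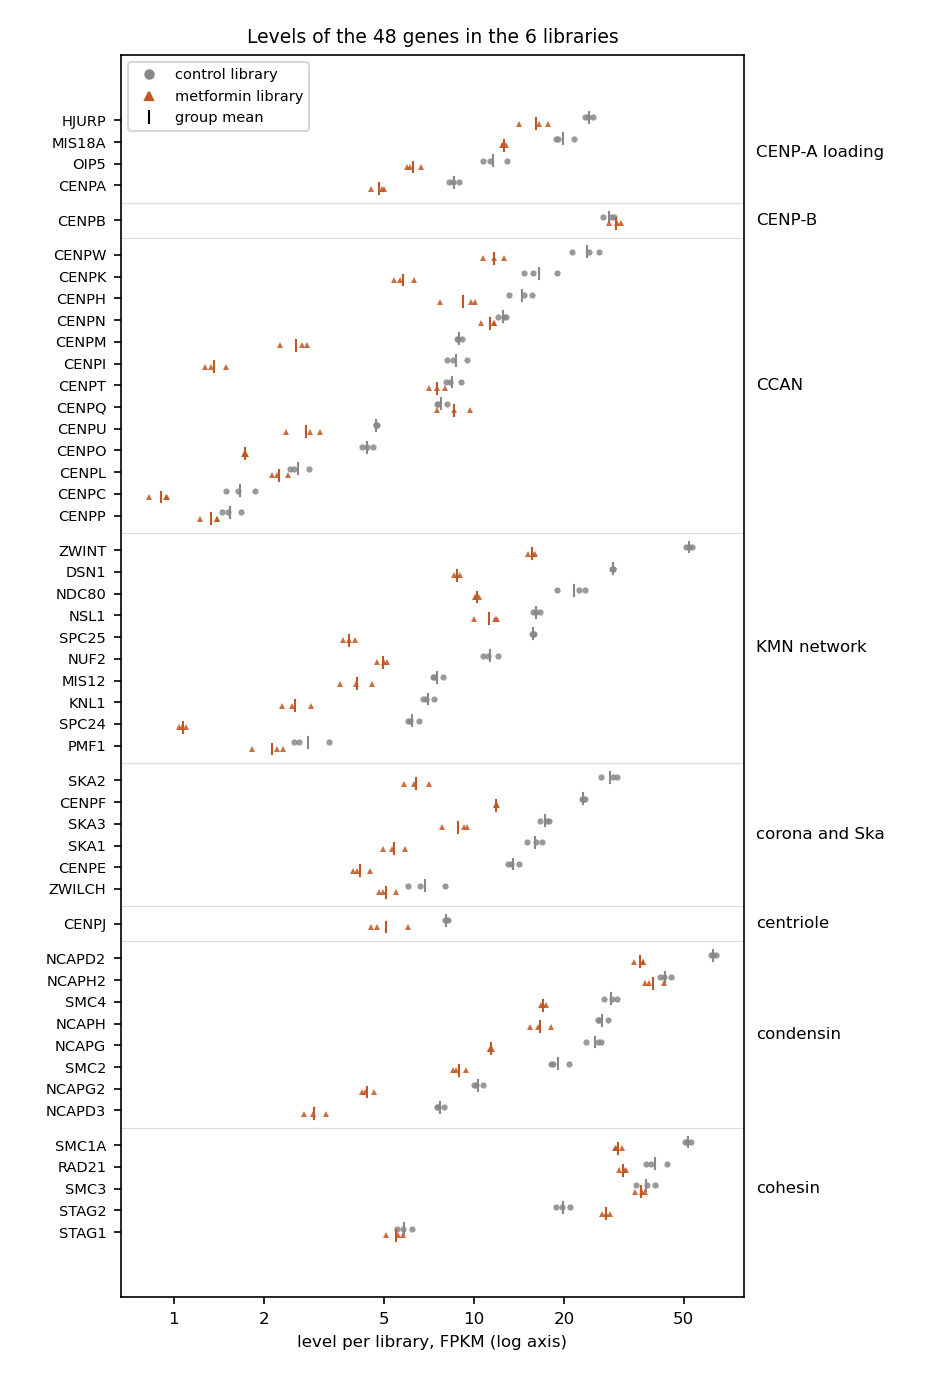
FPKM of the 48 genes (horizontal log axis) in the 3 control libraries (grey circles) and the 3 metformin libraries (orange triangles), with the mean of each group as a short vertical line, sorted by control level within each complex. The groups do not overlap in 43 of the 48 genes, of which STAG2 alone lies higher with metformin. Among all genes tested, every metformin library lay below every control library in 46% and above in 30.7%. SPC24 and CENPI show the widest gaps.

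The KMN network, the microtubule-binding outer layer, fell as a whole. All 10 of its genes were lower and 7 were past 2-fold, with a median log2 fold change of -1.11. With median-of-ratios factors 9 of the 10 were lower and 4 past 2-fold, and the median was -0.91. The 10 genes summed to between 165 and 172 FPKM in a control library and between 62.6 and 66.2 in a metformin library.

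The 4 subunits of the NDC80 complex, which grips the microtubule directly, were all lower past 2-fold, but not equally. SPC24 and SPC25, the end that faces the centromere, fell most. SPC24 (chr19:11131520-11155807, minus strand, GRCh38) was at 6.10, 6.58 and 6.04 FPKM in the control libraries and 1.10, 1.07 and 1.04 in the metformin libraries. This was 5.83-fold lower, the largest fall of the network (log2 fold change -1.81, standard error 0.066, adjusted p = 1.97e-06), with as few as 51 fragments in a library. SPC25 was at 15.7, 15.8 and 15.6 FPKM against 3.67, 3.82 and 4.001 (log2 fold change -1.79, standard error 0.054, adjusted p = 1.14e-06). The control libraries of SPC25 were nearly identical, and the metformin libraries lay at 24.4% of them on average. NDC80 and NUF2, the end that faces the microtubule, changed by -1.01 and -1.04. NDC80 was at 18.9, 23.5 and 22.4 FPKM against 10.2, 10.4 and 10.1, and NUF2 at 11.1, 10.7 and 12.02 against 5.12, 5.03 and 4.76. Both are close to the 2-fold limit, and with median-of-ratios factors they stood at -0.78 and -0.83. NDC80 was also within 2-fold without control replicate 5 or 6 or metformin replicate 3, and NUF2 without control replicate 6.

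KNL1, the scaffold to which checkpoint proteins bind, and its partner ZWINT fell by 1.18 and 1.67 on the log2 scale. ZWINT was the most abundant KMN transcript, at 50.9, 53.1 and 52.1 FPKM in the control libraries, and stood at 15.7, 16.0 and 15.2 in the metformin libraries. Its groups lay far apart compared with their spread, and the log2 fold change had a standard error of 0.047 (adjusted p = 9.99e-07, the lowest of the 48 genes). KNL1 was at 6.77, 6.95 and 7.36 FPKM against 2.48, 2.86 and 2.29.

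The MIS12 complex, which joins the CCAN to the other KMN proteins, held the widest spread of the network. DSN1 was at 28.9, 29.2 and 29.1 FPKM in the control libraries and 8.57, 8.80 and 8.999 in the metformin libraries (log2 fold change -1.62, adjusted p = 1.09e-06). MIS12 went from 7.36, 7.30 and 7.90 to 3.59, 4.58 and 4.06 FPKM (log2 fold change -0.75), and NSL1 from 15.7, 16.1 and 16.6 to 11.98, 11.8 and 10.01 (log2 fold change -0.49). The pair ratio of MIS12 to DSN1 is given below. PMF1 was only just past the threshold, at 3.28, 2.51 and 2.61 FPKM against 2.32, 1.83 and 2.21 (log2 fold change -0.28, adjusted p = 0.041). It did not pass without a filter (adjusted p = 0.0954), with quantile normalization, with TMM or median-of-ratios factors (adjusted p = 0.39 and 0.372), or without control replicate 4 or 6 or metformin replicate 2 or 3 (adjusted p = 0.0585 to 0.125). PMF1 also shares 23.3% of its exon bases with the readthrough gene PMF1-BGLAP.

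The corona and Ska genes act at the outer face of the kinetochore, where microtubules end. All 6 were lower, 3 of them past 2-fold, with a median of -1.16; with median-of-ratios factors 5 were lower and 3 past 2-fold. The Ska complex, which keeps the kinetochore on a shrinking microtubule end, fell in all 3 subunits. SKA2 (chr17:59109857-59155260, minus strand, GRCh38) was at 26.5, 29.9 and 29.0 FPKM in the control libraries and 6.30, 7.07 and 5.86 in the metformin libraries. It was 4.44-fold lower (log2 fold change -1.99, standard error 0.078, adjusted p = 2.29e-06), next to CENPI among the 48 genes on this scale. SPC24 had the larger ratio of means, and with a pseudocount of 0.1 or with voom SPC24 came before SKA2 (-2.44 against -2.14, and -2.53 against -2.15). SKA1 went from 15.0, 16.9 and 16.1 to 5.88, 5.34 and 4.99 FPKM (log2 fold change -1.41) and SKA3 from 16.6, 17.5 and 17.8 to 9.29, 9.45 and 7.82 (log2 fold change -0.90). In the control libraries SKA2 was the most abundant of the 3, and with metformin SKA3 was.

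CENPE, a kinesin motor that carries chromosomes to the spindle equator, was at 14.2, 12.98 and 13.3 FPKM against 4.08, 3.96 and 4.49 (log2 fold change -1.49, adjusted p = 3.11e-06). CENPF, a microtubule-binding protein of the corona, had very little spread, at 23.0, 22.8 and 23.4 FPKM against 11.8, 11.9 and 11.8 (log2 fold change -0.91). ZWILCH, a subunit of the RZZ complex that builds the corona, was at 6.03, 6.59 and 8.01 FPKM against 4.84, 4.98 and 5.49. The ZWILCH groups did not overlap and it was lower (log2 fold change -0.36, adjusted p = 0.0127), but not with quantile normalization (adjusted p = 0.0566), median-of-ratios or TMM factors (0.198 and 0.224). CENPJ bears a CENP name but acts at the centriole, where it governs centriole length. It was at 8.02, 8.22 and 8.05 FPKM in the control libraries and 4.76, 6.01 and 4.54 in the metformin libraries (log2 fold change -0.58, adjusted p = 0.000909).

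Condensin genes fell in 7 of 8 cases, 4 of them past 2-fold, with a median log2 fold change of -0.91. With median-of-ratios factors the 7 were still lower, none past 2-fold, and the median was -0.68. The core ATPases SMC2 and SMC4 belong to both condensins. SMC2 went from 18.4, 18.1 and 20.7 FPKM to 9.43, 8.72 and 8.55 (log2 fold change -1.02) and SMC4 from 27.1, 28.9 and 30.0 to 17.01, 17.3 and 16.8 (log2 fold change -0.72). SMC2 was within 2-fold without control replicate 6 and without metformin replicate 3. SMC4 shares 19% of its exon bases with TRIM59 on the other strand.

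Condensin I, which acts on chromosomes after the nuclear envelope breaks down, fell in all 3 of its own subunits. NCAPD2, the most abundant of the 48 transcripts without metformin, was at 61.5, 63.9 and 62.7 FPKM in the control libraries and 36.6, 36.6 and 34.2 in the metformin libraries (log2 fold change -0.79, standard error 0.048, adjusted p = 9.44e-06). NCAPG went from 23.6, 25.9 and 26.5 to 11.3, 11.5 and 11.3 FPKM (log2 fold change -1.09) and NCAPH from 26.1, 25.9 and 27.9 to 18.0, 16.3 and 15.4 (log2 fold change -0.65). In none of these 3 genes did the groups overlap. NCAPG shares 33.7% of its exon bases with LCORL on the other strand, which was at 3.09 FPKM without metformin and 4.38 with it.

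Condensin II, which is nuclear throughout the cell cycle and starts condensation in prophase, fell in 2 of its own subunits. NCAPD3 went from 7.93, 7.59 and 7.56 FPKM to 2.72, 3.20 and 2.90 (log2 fold change -1.14, standard error 0.067, adjusted p = 8.33e-06) and NCAPG2 from 9.98, 10.7 and 10.2 to 4.32, 4.64 and 4.22 (log2 fold change -1.06). NCAPH2, the kleisin that closes the ring, was at 42.9, 45.4 and 41.6 FPKM in the control libraries and 43.1, 37.0 and 38.3 in the metformin libraries. Its groups overlapped and it did not pass (log2 fold change -0.13, 95% interval -0.29 to 0.027, adjusted p = 0.114). Without metformin replicate 1 NCAPH2 was lower (-0.20, adjusted p = 0.0241), and with median-of-ratios factors its value was 0.10. NCAPH2 shares 19.2% of its exon bases with SCO2 on the other strand.

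The 5 cohesin genes had changes in both directions. Of them 2 were lower, 1 was higher and 2 did not pass, close to the 44.1% lower and 28.9% higher of all genes tested, so the count shows nothing particular to cohesin. The median log2 fold change was -0.076, which turned to 0.13 with median-of-ratios factors and 0.14 with TMM factors. SMC1A, 1 arm of the ring, was at 51.1, 50.4 and 53.0 FPKM in the control libraries and 31.2, 29.8 and 29.5 in the metformin libraries (log2 fold change -0.75, standard error 0.048, adjusted p = 1.09e-05). SMC3, the other arm, was at 34.7, 37.7 and 40.1 FPKM against 37.1, 36.2 and 34.4, with overlapping groups. This was a log2 fold change of -0.060 (95% interval -0.21 to 0.092, adjusted p = 0.425), and with median-of-ratios factors SMC3 was higher (0.17, adjusted p = 0.0479). RAD21, the kleisin that separase cleaves at anaphase, was at 37.4, 38.9 and 43.95 FPKM against 30.5, 31.6 and 32.0. RAD21 was lower (log2 fold change -0.34, adjusted p = 0.00265), but with median-of-ratios factors it did not pass (-0.11, adjusted p = 0.204).

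STAG1 and STAG2 are alternative subunits that bind RAD21, so that a cohesin ring carries either of them. STAG2 (chrX:123960212-124422664, plus strand, GRCh38) was the only gene of the 48 called higher on FPKM of all 6 libraries without further scaling. It was at 18.8, 19.6 and 20.9 FPKM in the control libraries and 27.6, 28.3 and 26.6 in the metformin libraries. All metformin values lay above all control values, 1.39-fold on average (log2 fold change 0.46, standard error 0.057, adjusted p = 0.00025). It was higher under every alternative, at 0.69 with median-of-ratios factors. STAG1 was at 5.53, 6.24 and 5.79 FPKM against 5.10, 5.58 and 5.82, and its groups overlapped (log2 fold change -0.076, 95% interval -0.24 to 0.090, adjusted p = 0.355). STAG1 shares 21.2% of its exon bases with PCCB on the other strand.

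Of 18 pairs set by shared complex, the log2 ratio of FPKM did not overlap between the groups in 13 (72.2%) and overlapped in 5. Over all 80384860 pairs of genes tested and above 0 in every library 75.8% did not overlap, so the count says nothing particular to these pairs. The exact permutation test over the libraries (two-sided) has 20 arrangements and cannot go below p = 0.1, which these 13 pairs had (adjusted p = 0.138 over the 18 pairs), so no pair could pass a threshold of 0.05 and the values are given as measured.

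SMC1A went from above SMC3 to below it: the log2 ratio was 0.56, 0.42 and 0.40 in the control libraries and -0.25, -0.28 and -0.22 in the metformin libraries. The ratio of STAG1 to STAG2 went from 0.296 to 0.2 on the linear scale, so STAG2 made up more of the pair after metformin. Among the condensins, the log2 ratio of NCAPH to NCAPH2 went from -0.70 to -1.25 and that of NCAPD2 to NCAPD3 from 3.03 to 3.61. Against its condensin II counterpart NCAPH thus dropped and NCAPD2 rose. NCAPG to NCAPG2 overlapped (1.30 ± 0.073 against 1.37 ± 0.058, SD, n = 3 each).

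In the CCAN the ratio of CENPO to CENPP dropped by 1.14 on the log2 scale, the widest shift of the 18 pairs. Both genes are uncertain, because they share exon bases with genes on the other strand. The ratio of CENPQ to CENPU rose by 0.93. CENPH was 0.883 times CENPK in the control libraries and 1.57 times CENPK with metformin. CENPT rose against CENPW, from a log2 ratio of -1.49 ± 0.23 to -0.63 ± 0.099. In the KMN network MIS12 rose against DSN1, from 0.259 to 0.462 of its level. SPC24 dropped against SPC25, from 0.397 to 0.279 of its level. On the log2(FPKM + 1) scale, however, they fell by about the same amount (-1.81 and -1.79), and SPC24 had as few as 51 fragments in a library. NDC80 to NUF2 overlapped, at 0.93 ± 0.19 against 1.04 ± 0.048 on the log2 scale. SKA1 stood at 0.562 of the level of SKA2 without metformin and at 0.844 with it. CENPA to HJURP, CENPL to CENPN and NSL1 to PMF1 overlapped as well.

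**Figure D3:**
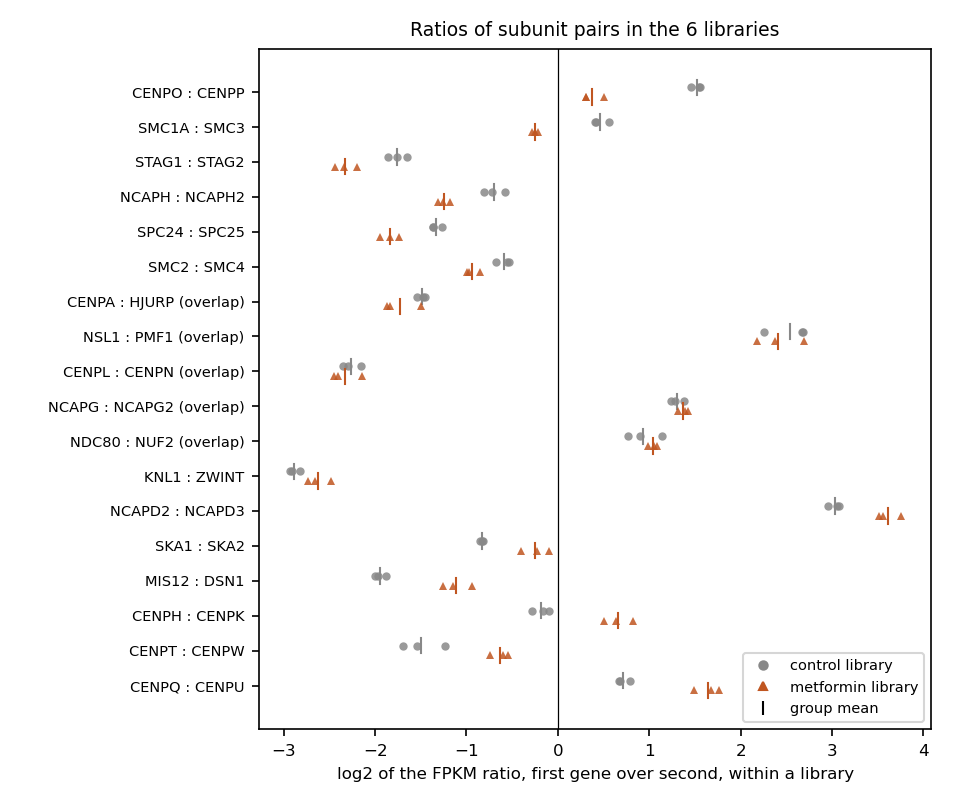
Log2 ratio of FPKM (horizontal axis, first gene over second) for 18 pairs of subunits in the 3 control libraries (grey circles) and the 3 metformin libraries (orange triangles), with the mean of each group as a short vertical line, sorted by the difference between groups. CENPO to CENPP shows the widest drop, though both genes are uncertain because of shared exon bases. CENPQ to CENPU shows the widest rise, while 5 pairs marked as overlapping do not separate.

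The 48 control means ran from 1.54 FPKM (CENPP) to 62.7 (NCAPD2), with a median of 15.1, and the metformin means from 0.908 (CENPC) to 39.5 (NCAPH2), with a median of 6.98. The Spearman correlation of the control level with the log2 fold change across the 48 genes was -0.12, as a description, since genes share libraries and are not replicates. The coefficient of variation within a group had a median of 4.6% in the control and 6.4% in the metformin libraries. By rank, 10 of the 48 lay among the lowest 5% of fold changes of all genes tested and 31 among the lowest 25%.

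Genes that work with these complexes were read from lists that hold none of the 48. Among all genes tested 44.1% were lower and 28.9% higher, or 33.3% and 40.4% with median-of-ratios factors. The chromosomal passenger complex, which corrects wrong attachments, and the shugoshins, which protect cohesin at centromeres, were lower in 6 of 6 genes (5 with median-of-ratios factors), led by the kinase AURKB and by CDCA8 (log2 fold changes -1.18 and -0.99). AURKB was at 48.1 ± 0.758 FPKM without metformin and 20.7 ± 1.80 with it (mean ± SD, n = 3 each, as in the values that follow). Of 10 spindle checkpoint and RZZ genes 7 were lower, 2 were higher and the last, ZW10, stood at 0.087 without passing (with 7 lower and 3 higher under median-of-ratios factors). KNTC1, the largest RZZ protein, was at 8.50 ± 0.442 FPKM against 3.05 ± 0.475 (log2 fold change -1.24), and SPDL1, which brings dynein to the kinetochore, changed by -1.09. MAD2L1BP, which silences the checkpoint, was at 8.70 ± 0.513 FPKM against 15.8 ± 2.11 (log2 fold change 0.79) and rose, as did MAD1L1, a checkpoint protein, by 0.60.

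Further centromere proteins were lower in 5 and higher in 2 of 7 genes tested (3 and 2 with median-of-ratios factors). RBBP7, a histone chaperone, and ITGB3BP, a CCAN protein that joins the CENPO assembly, changed by -0.96 and -0.85. CENPV and RSF1, which act on centromeric chromatin, were higher, by 0.71 and 0.66. CENPS was under the minimum level and was not tested.

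Of 11 genes for cohesin's loaders, releasers and modifiers 5 were lower, 4 higher and 2 did not pass, which is also near the shares over all genes tested (44.1% and 28.9%), with a median log2 fold change of 0.056 (3 lower, 6 higher and 0.28 with median-of-ratios factors). ESCO2, the acetyltransferase that locks cohesin in S phase, was at 4.74 ± 0.235 FPKM against 0.933 ± 0.101 and fell (log2 fold change -1.57, adjusted p = 4.21e-06). ESCO1, the related enzyme that acts throughout the cycle, was at 5.65 ± 0.126 FPKM against 9.49 ± 0.706 and rose (log2 fold change 0.66, adjusted p = 8.78e-05). The pair of acetyltransferases thus went opposite ways, without overlap between groups in either. ESPL1, the separase that cleaves RAD21, was at 9.17 ± 0.466 FPKM against 2.71 ± 0.197 and fell too (log2 fold change -1.46), while PDS5A, a cohesin regulator, rose by 0.46. The related SMC5/6 complex had 4 lower, 1 higher and 1 not passed of 6 genes, with SMC5 at -0.76, NSMCE1 at -0.64 and its SUMO ligase NSMCE2 at 0.81 (4 lower and 2 higher with median-of-ratios factors). Of 4 germline cohesin genes only REC8 reached the minimum level, at 1.22 ± 0.208 against 1.55 ± 0.171 FPKM, and it did not pass (adjusted p = 0.106).

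Genes that mark cell cycle phases moved with these complexes. The shares over all genes tested were 44.1% lower and 28.9% higher, or 33.3% and 40.4% with median-of-ratios factors. Of 15 G1/S genes 13 were lower, with a median log2 fold change of -1.19, and they summed to between 804 and 828 FPKM in a control library and between 369 and 387 in a metformin library. RRM2, a subunit of ribonucleotide reductase, and PCNA, the sliding clamp of DNA polymerases, fell most (-2.88 and -2.39). Of 15 G2/M genes 13 were lower, with a median of -0.84, and they summed to between 839 and 864 FPKM against between 495 and 512. MKI67, a proliferation marker, and CCNB2, a mitotic cyclin, fell most (-1.52 and -1.38). With median-of-ratios factors 11 genes of either list were lower, 2 of the G1/S and 1 of the G2/M list were higher, and the medians were -0.96 and -0.60. The part of these phase genes in the changes of the 48 genes was not tested.

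**Figure D4:**
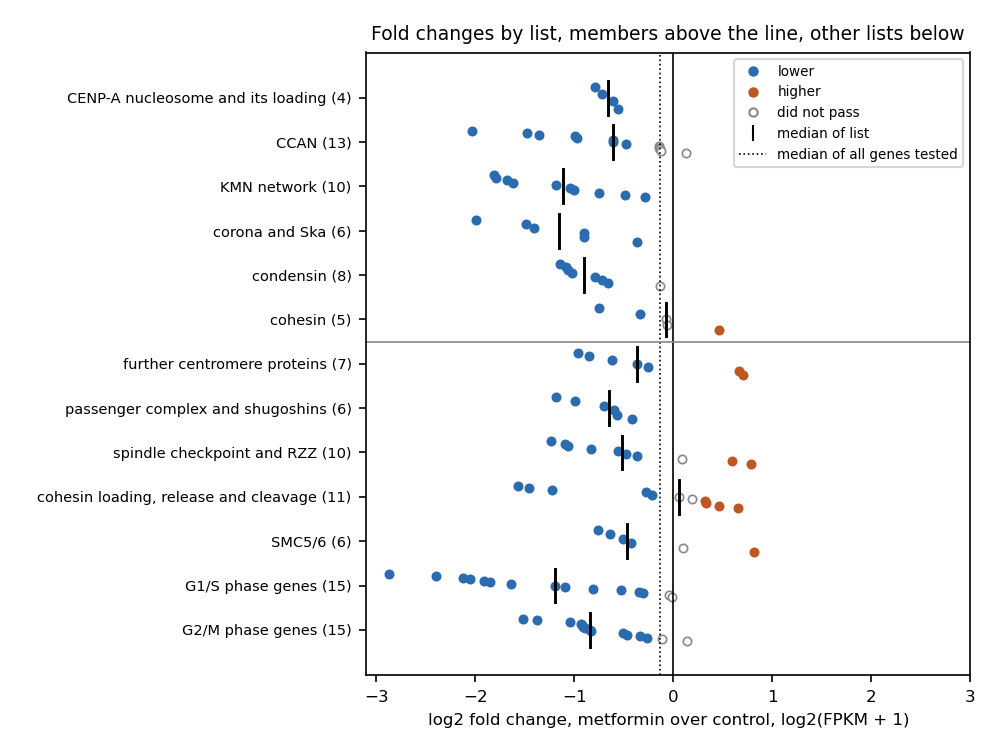
Log2 fold changes (horizontal axis, metformin over control on the log2(FPKM + 1) scale) of the genes tested in each list, with the number in brackets, the list's median as a black bar and the median of all genes tested (-0.14, or 0.060 with median-of-ratios factors) as a dotted line. Among the 48 genes, every kinetochore and condensin group with more than 1 gene has its median at -0.61 or below. Cohesin (-0.076) and its regulators (0.056) have medians near 0 that rise to 0.13 and 0.28 with median-of-ratios factors.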

How the data were processed

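RNA of Huh-7 cells was sequenced for the study in 3 control and 3 metformin libraries. The study's methods name GRCh38 as the genome and Cufflinks 2.1.1 for expression, and give no aligner. The deposited values are FPKM per gene and library, already filtered and scaled by the authors, for 35840 genes, 4063 of them at 0 throughout. Depth was recovered from the steps of FPKM within a gene: whole fragments, within 0.01, came out for 99.99% of the 31777 genes above 0. Fragments of overlapping genes and close paralogs may be shared, and strand is not stated.

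The 48 genes, the lists, the pairs and the motifs were chosen with earlier results of these data known, and the motifs with the fold changes of the 48 seen. All 48 are named; from each other list up to 2 higher and 2 lower genes with the largest change past the test are named, and any other gene (markers and overlapping genes) was chosen after its values were seen. Names, coordinates and exon overlaps came from GENCODE 44.

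The groups were compared on log2(FPKM + 1) by limma 3.58.1 (R 4.3.3) with a trended prior variance. Tested were the 13094 genes whose mean reached 1 FPKM in the control or the metformin group, with Benjamini-Hochberg adjustment over all of them. All tests were two-sided. A difference past 2-fold has an absolute log2 fold change above 1. Pair ratios used no pseudocount and an exact permutation test in scipy 1.17.1. Python 3.11.15, pandas 2.3.3 and numpy 2.4.6 did the rest. The limma step was first run on simulated data with known changes.

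Alternatives were a pseudocount of 0.1, no filter, a minimum of 2 FPKM, quantile normalization, median-of-ratios and TMM factors, voom on the rebuilt fragments (for genes with 10 or more in 3 or more libraries) and leaving out each library. Count models that need deposited counts were not used.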

Additional observations from a re-analysis of the deposited data

How the results depend on the processing

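Limits: 3 libraries a group in 1 cell line, 1 dose and 1 time, and a direction for small changes that turns with the scaling, which moved the median over all 13094 genes from -0.14 (log2) to -0.024 (quantile normalization), 0.060 (median-of-ratios), 0.067 (TMM) and -0.24 (voom on rebuilt fragments). Depth limits CENPM, PMF1, SPC24 and CENPI most, the 4 genes with under 100 fragments in some library. No paired analysis was possible because the groups share no replicate number. Of the 38 lower genes, 34 were lower under all 13 alternatives; CENPC, PMF1, RAD21 and ZWILCH lost the call under some. The count of lower genes ran from 35 to 38 under the 7 other settings and from 37 to 39 with 1 library left out. The count of higher genes was 4 with median-of-ratios factors and 4 with TMM factors, where CENPB, CENPQ and SMC3 joined STAG2, and 1 to 2 with 1 library left out. The count past 2-fold was 10 with median-of-ratios factors and 10 with TMM factors, and 13 with quantile normalization. It was 19 with a pseudocount of 0.1 and with voom, and 15 to 18 with 1 library left out. CENPO and CENPW, just within 2-fold on the log2(FPKM + 1) scale, passed it under some of these. Their control means were 2.56 and 2.04 times their metformin means. Pairs without overlap numbered 12 with a pseudocount of 1 and 13 to 15 with 1 library left out. Log2 fold changes turned in sign only for genes that had not passed. With quantile normalization these were CENPL (0.11), CENPP (0.17) and STAG1 (0.030). With median-of-ratios and TMM factors they were CENPL (0.024 and 0.031), CENPN (0.091 and 0.099), CENPP (0.018 and 0.024), CENPT (0.068 and 0.075), SMC3 (0.17 and 0.18), NCAPH2 (0.10 and 0.11) and STAG1 (0.13 and 0.14). With a pseudocount of 1 the shift of NCAPG to NCAPG2 turned to -0.023. Of 622 fold changes over the alternatives, 585 kept direction and side of the threshold.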
